A study of Mus musculus with 6 samples.

Results

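The genes described here are Hmgcs1, Idi1, Fdps, Fdft1, Sqle, Lss and Cyp51, which encode enzymes of cholesterol synthesis, and Insig1, which encodes a sterol-dependent regulator of the same pathway. They were chosen by gene symbol: all probe sets that the platform annotation assigns to exactly 1 gene, that gene being 1 of these 8. This gave 21 of the 45037 probe sets tested, and 8 of 18193 genes. No receptor for lipoprotein uptake is among the 8, so they are called the sterol synthesis genes below, and uptake genes are given separately.

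RNA of the stria vascularis, the secretory epithelium of the cochlear lateral wall, was hybridised to 1 array per pool. There were 3 pools of wild-type mice and 3 pools of Errb mutant mice, made by conditional knock-out of Esrrb (Errb or Nr3b2 in the labels), the gene of an orphan nuclear receptor. Each pool combined 10 mice, and the series design speaks of inner ears where the sample labels name the stria. The sources used here do not give the cells in which the knock-out acts, the strain or the sex, and an age (postnatal day 3 to 5) is given for the first wild-type pool alone.

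Cells make cholesterol from acetyl groups through the mevalonate pathway, which branches at farnesyl diphosphate into sterols on one side and other isoprenoids on the other. When membrane sterol falls, the transcription factor SREBP2 (gene Srebf2) is escorted by Scap from the endoplasmic reticulum, cut, and sent to the nucleus, where it activates the synthesis genes together. Insig proteins hold Scap back when sterol is plentiful, and Insig1 is itself an SREBP target. In epithelia such as the stria, membrane cholesterol is a component of the folded basolateral membranes and of the tight junctions.

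Promoter sequence is shown for 3 of the genes, because SREBP2 is known to act at such sites and because these 3 cover the largest difference among the best expressed probe sets (Hmgcs1), the 1 such probe set lower in every pair (Idi1) and a late step of the pathway (Cyp51). The sequences are the 150 bases before the transcription start, 5′ to 3′ on the gene's strand, from RefSeq (GRCm38.p6). They lie at chr13:119690201-119690350 on the plus strand for Hmgcs1, chr13:8885456-8885605 on the plus strand for Idi1 and chr5:4104698-4104847 on the minus strand for Cyp51. Capitals mark exact matches, on either strand, to a sterol regulatory element (TCACNCCAC) or to the NF-Y box (CCAAT, or ATTGG on the other strand), which often accompanies it.
Hmgcs1: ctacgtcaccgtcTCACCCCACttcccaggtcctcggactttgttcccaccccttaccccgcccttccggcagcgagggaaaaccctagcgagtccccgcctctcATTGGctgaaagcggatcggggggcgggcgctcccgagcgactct
Idi1: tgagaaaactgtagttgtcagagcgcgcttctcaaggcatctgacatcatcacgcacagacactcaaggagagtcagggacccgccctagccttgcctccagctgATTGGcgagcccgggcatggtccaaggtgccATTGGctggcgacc
Cyp51: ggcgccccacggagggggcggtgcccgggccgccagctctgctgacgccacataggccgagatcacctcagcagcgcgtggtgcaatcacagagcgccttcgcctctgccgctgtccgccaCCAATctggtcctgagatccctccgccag

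Of the 8 genes, 5 (Hmgcs1, Idi1, Lss, Cyp51 and Insig1) matched a promoter in that table. In the whole window, 250 bases before to 50 after the start, 1 of the 5 held TCACNCCAC. That gene was Hmgcs1, whose match begins at position -137 from the start, against 1.44% of all 27025 genes in the table. All 5 held CCAAT, as did 41.1% of all genes. None held TCAAGGTCA, the element bound by estrogen-related receptors, which 0.466% of all genes held. The motifs do not overlap one another in these windows. A match is a description of letters, not of a bound site, and a missing match says only that those letters are not in that window.

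The arrays were compared in same-numbered pairs, and values are log2 levels as deposited. Pair 1 stood apart. For Gapdh, the 3′ control probe set minus the 5′ one, a sign of RNA quality, came to 2.28 and 2.57 there in wild type and mutant and between -0.04 and 0.51 on the other 4 arrays. Also, 34.2% of all probe sets had exactly equal values on both arrays of pair 1. The difference of each of the 8 genes is therefore also given without pair 1. The targeted gene differed by -0.07 ± 0.21 (mean ± SD of 3 pairs, log2) in its best expressed probe set (limma adjusted p = 0.856), with arrays at 9.68, 10.60 and 9.96 in wild type and 9.76, 10.28 and 9.98 in the mutant. Its other probe sets differed by -0.18 ± 0.43 and -0.42 ± 0.46, the latter lower in all 3 pairs (-0.05, -0.29 and -0.93), and neither passed. Where the 3 lie relative to the deletion is not known here, and they do not check the genotype labels. Of 7 marginal cell markers measured, which include Esrrb itself, 4 passed, all lower, and Kcne1 fell by 4.32. The summed linear level of the 7 was 9051 to 17076 in wild type and 3607 to 6851 in the mutant. Of 9 intermediate cell and melanocyte markers 0 passed, but 8 were lower in the mean and 7 in all 3 pairs (median -0.68, summed level 6962 to 12858 against 4707 to 7563). Of 6 basal cell markers 5 were lower in the mean (median -0.28, summed level 14990 to 29413 against 9196 to 19544), and the connexin gene Gjb6 fell by 1.27 (limma adjusted p = 0.0304). Fewer cells of a type and less RNA per cell cannot be told apart in such pools, and the part of either in the values below was not tested.

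No difference in the sterol synthesis genes passed the test, and the largest were those of Hmgcs1 and Fdft1, both higher in the mutant (1.28-fold and 1.27-fold). None of the 21 probe sets passed at an adjusted p of 0.05 in limma's paired fit, where 0.0933% of all probe sets passed, and none of the 8 genes passed by its best expressed probe set, where 0.148% of all genes did. Without the pairing 0 of the 21 passed as well, against 0.00666% of all. At an unadjusted p under 0.05 the paired fit held 4 of the 21, all higher in the mutant (4.11% of all probe sets) and from Hmgcs1 and Fdft1, and 0 lower (3.07% of all). The unpaired fit held 0. The median difference over the 8 genes was 0.02, beside 0.004 over all genes, and the medians of pairs 1 to 3 were 0.04, -0.03 and 0.12. By best expressed probe set 4 genes were higher in the mean and 4 lower. Mean differences over the 21 probe sets ran from -0.11 to 0.36. Their 95% intervals reached no further than -0.39 and 0.72, or a 1.31-fold lower and a 1.64-fold higher level, taking each probe set by itself. The smallest p that an exact permutation test allows with 3 pairs is 0.25, and the number of arrays limits the precision.

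**Figure D1:**
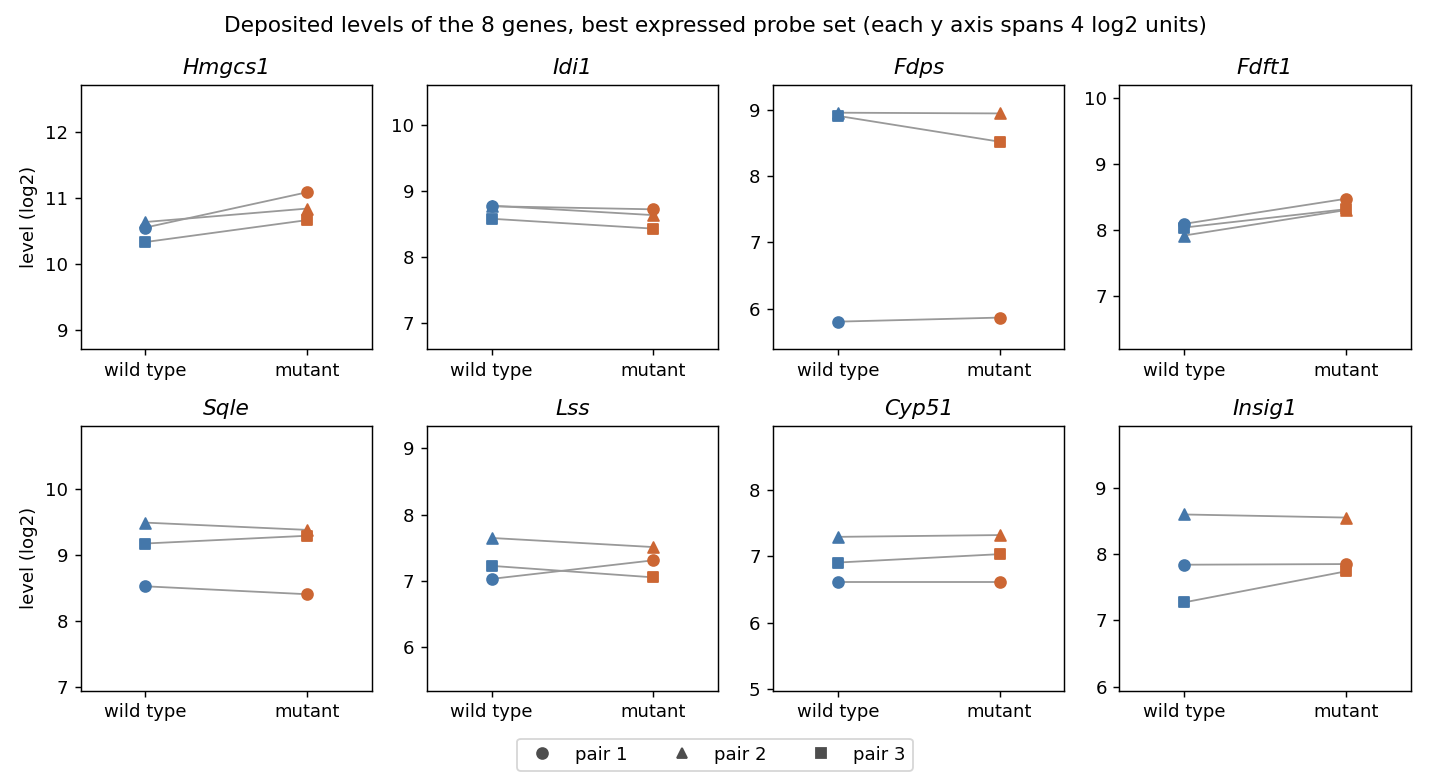
Log2 level (y axis, 4 units in each panel) of the best expressed probe set of each of the 8 genes on the 3 wild-type (blue) and 3 mutant (orange) arrays, with a line joining the arrays of a pair. All 3 lines slope upward for Hmgcs1 and Fdft1 and downward for Idi1, and for the other 5 genes they do not all slope one way. Both arrays of pair 1 lie about 3 units below the others for Fdps (5.80 and 5.86 against 8.52 to 8.96).

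Hmgcs1 encodes the cytosolic HMG-CoA synthase, which condenses acetoacetyl-CoA and acetyl-CoA at the entry to the mevalonate pathway. Its best expressed probe set read 10.55, 10.64 and 10.33 in wild-type pools 1 to 3 and 11.09, 10.84 and 10.67 in the mutant pools. Every mutant array lay above every wild-type array. The difference was 0.36 ± 0.17 (SD, n = 3), a 1.28-fold difference with a 95% interval of 0.13 to 0.58 (limma adjusted p = 0.454). It was 0.53, 0.20 and 0.33 in pairs 1 to 3, and 0.27 without pair 1 (adjusted p = 0.731).

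Hmgcs1 has 5 probe sets, and all 5 had a positive mean difference. The next 2 probe sets by level were also higher in all 3 pairs, by 0.27 ± 0.16 and 0.29 ± 0.22 (adjusted p = 0.598 and 0.638). The other two gave smaller or more uneven values. The better expressed of them differed by 0.07 ± 0.16, with pair 3 in the other direction, and the lowest by 0.21 ± 0.27, with pair 2 in the other direction. Probe sets of 1 gene share their target and are not independent.

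Idi1 encodes isopentenyl diphosphate isomerase, which interconverts the building blocks of all isoprenoids. Its best expressed probe set read 8.77, 8.78 and 8.58 in wild type and 8.72, 8.63 and 8.43 in the mutant. It was lower in all 3 pairs, by a mean of -0.11 ± 0.06 (interval -0.28 to 0.06, limma adjusted p = 0.750), though the genotypes overlapped, and by -0.15 without pair 1. The second probe set gave 0.002 ± 0.21.

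Fdps encodes farnesyl diphosphate synthase, the enzyme at the branch between sterols and other isoprenoids. Its levels were 5.80, 8.96 and 8.91 in wild type and 5.86, 8.95 and 8.52 in the mutant. The spread between pairs was far wider than any difference within one, since both arrays of pair 1 read about 3 log2 units below the rest. The part of the 3′ and 5′ imbalance of pair 1 in this was not tested. The difference was -0.11 ± 0.24 (adjusted p = 0.796), of which -0.39 came from pair 3, and without pair 1 it was -0.20. The second probe set read 2.70 to 3.66 on the 6 arrays, within the lowest 1.20% of probe sets on each.

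Fdft1 encodes squalene synthase, the first enzyme committed to sterols. Its best expressed probe set read 8.09, 7.92 and 8.04 in wild type and 8.47, 8.30 and 8.32 in the mutant. All mutant arrays were above all wild-type arrays, as for Hmgcs1. The difference of 0.35 ± 0.06 (1.27-fold, interval 0.18 to 0.52) was the most even over pairs of those over 0.2, at 0.38, 0.39 and 0.28, and had the lowest adjusted p of the 21 probe sets (limma adjusted p = 0.327). Without pair 1 it was 0.33.

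The other probe sets of Fdft1 gave smaller or negative mean differences, and whether they differ from the first was not tested. The second had a mean level only 0.0065 below that of the first and differed by 0.14 ± 0.16 (adjusted p = 0.750), at 0.007, 0.10 and 0.32 in pairs 1 to 3. With quantile normalization across the arrays this probe set was the best expressed, and Fdft1 then differed by 0.14; averaged over its 4 probe sets it differed by 0.11. The remaining pair of probe sets gave -0.03 ± 0.22 and -0.02 ± 0.24, both with their lowest value in pair 3 (-0.27 in each). By the ending of its identifier, the first is of the class whose probes may match other transcripts.

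**Figure D2:**
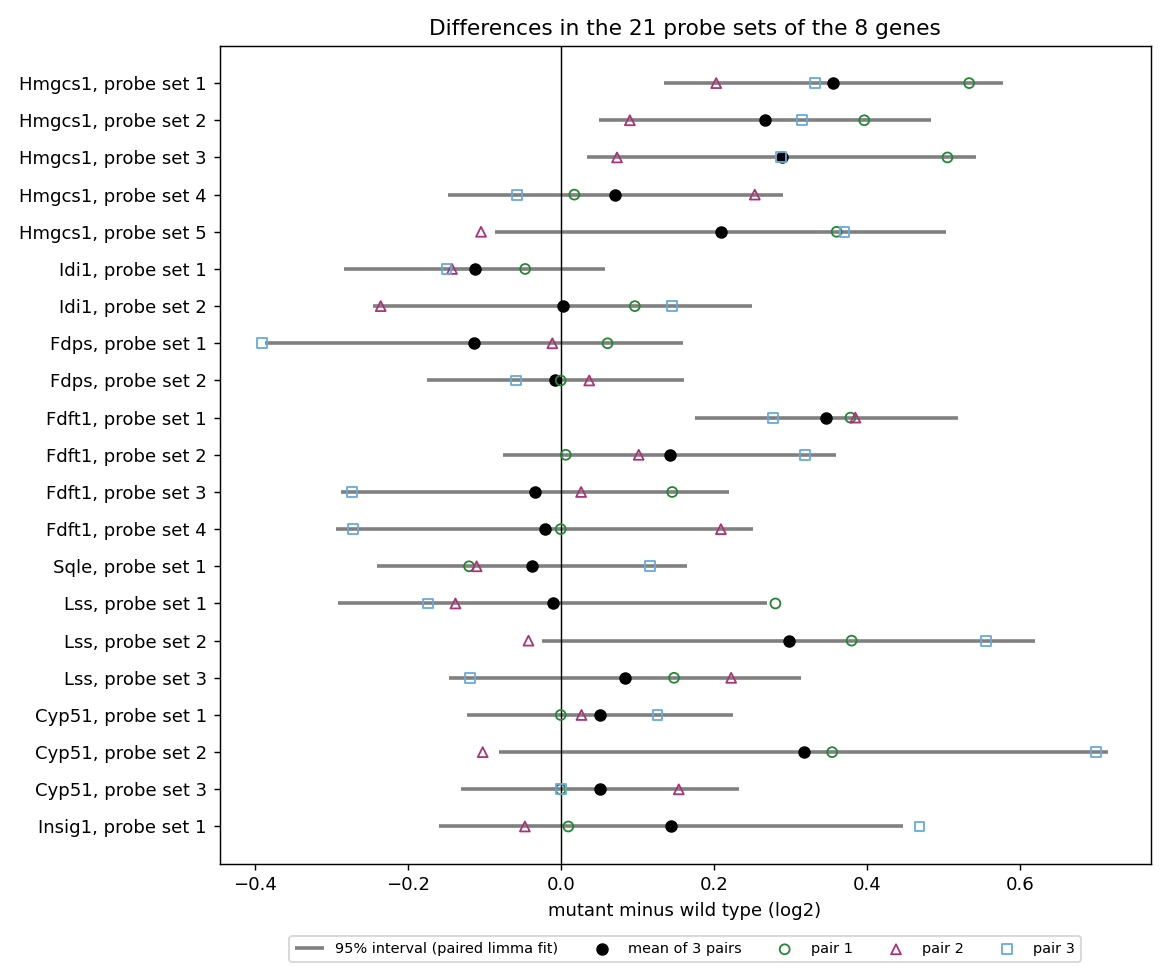
Mutant minus wild type (x axis, log2) for the 21 probe sets, ordered by gene along the pathway and by level within a gene. Open symbols are the 3 pairs, black dots their mean and bars the 95% interval of the paired fit; 4 intervals, 3 of Hmgcs1 and 1 of Fdft1, lie above 0, and the rest include it.

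Sqle encodes squalene epoxidase, a rate-limiting oxygen-dependent step. Its 1 probe set read 8.53, 9.49 and 9.18 in wild type and 8.41, 9.38 and 9.29 in the mutant. The difference was -0.04 ± 0.13 (interval -0.24 to 0.17, adjusted p = 0.908), with pairs 1 and 2 lower and pair 3 higher, and 0.0036 without pair 1.

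Lss encodes lanosterol synthase, which closes the sterol rings. Its best expressed probe set read 7.03, 7.65 and 7.22 in wild type and 7.31, 7.51 and 7.05 in the mutant, a difference of -0.01 ± 0.25 (adjusted p = 0.984). Pair 1 was higher by 0.28 and the others were lower, so that the difference without pair 1 was -0.16. Its second probe set differed by 0.30 ± 0.31 (adjusted p = 0.723) and its lowest by 0.08 ± 0.18. The probe sets thus disagreed in sign in the mean.

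Cyp51 encodes lanosterol 14-alpha-demethylase, the next enzyme after Lss. Its best expressed probe set read 6.62, 7.30 and 6.91 in wild type and 6.62, 7.32 and 7.03 in the mutant, with exactly equal values in pair 1 and a difference of 0.05 ± 0.07 (interval -0.12 to 0.22, adjusted p = 0.853). Without pair 1 it was 0.077. The second probe set gave the widest spread of the 21, 0.32 ± 0.40 (adjusted p = 0.743), from 0.35, -0.10 and 0.70 in the 3 pairs. The second probe set of Lss had the same order of pairs, at 0.38, -0.04 and 0.56. Both were near 0 or below in pair 2.

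Insig1 encodes the membrane protein that retains Scap in the endoplasmic reticulum. Its 1 probe set read 7.84, 8.60 and 7.27 in wild type and 7.85, 8.56 and 7.74 in the mutant. The difference of 0.14 ± 0.28 (interval -0.16 to 0.45, adjusted p = 0.775) came from pair 3 alone (0.47), as pairs 1 and 2 were at 0.01 and -0.05. Without pair 1 it was 0.21.

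Within genes the probe sets often differed in sign. Of the 6 genes with several probe sets, 3 had mean differences of 1 sign. Of the 21 probe sets, 5 were higher in the mutant in all 3 pairs (12.1% of all probe sets), of which 3 belong to Hmgcs1 and 2 to Fdft1, and 1 was lower in all 3 (8.41% of all). Exactly equal values occurred in 4 of the 21 in pair 1, 0 in pair 2 and 1 in pair 3. By best expressed probe set, 2 of the 8 genes had an unadjusted p under 0.05 and were higher (4.04% of all genes), and the same 2 had all mutant arrays above all wild-type arrays (0.682% of all genes). After quantile normalization or median centring across the 6 arrays, the genotypes of those 2 probe sets overlapped. Under both settings 1 of the 21 separated instead, the second probe set of Hmgcs1, where 0.95% of all probe sets did so after quantile normalization and 0.935% after centring. Neuron markers had their largest median difference in pair 1, as had the best expressed probe set of Hmgcs1 (0.53, 0.20 and 0.33 in pairs 1 to 3). Another Hmgcs1 probe set was largest in pair 2 (0.25), and its lowest in pair 3 (0.37, with 0.36 in pair 1). The best expressed probe set of Fdft1 was nearly equal in pairs 1 and 2 (0.38 and 0.39, with 0.28 in pair 3). The median of 9 neuron markers was 1.12, 0.30 and 0.24 in pairs 1 to 3. Their summed linear level was 642 to 966 in wild type and 753 to 2232 in the mutant. Schwann cell and myelin markers, from cells that make much cholesterol, had medians over 5 genes of 0.40, -0.06 and 0.04, and summed levels of 2579 to 4740 and 3144 to 4373. The part of such cells in the sterol gene values was not tested.

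Other enzymes of cholesterol synthesis differed by 0.30 or less in the mean. Of the 11 measured, 0 passed, 8 were higher and 3 lower in the mean, and the median was 0.02. Mvd, which makes isopentenyl diphosphate, differed by 0.16 ± 0.13 (adjusted p = 0.740), and Hsd17b7, a sterol 3-keto reductase, by 0.12 ± 0.06 (0.750), both in the same direction in 3 pairs. The 2 with an unadjusted p under 0.05 were both lower, as were 3.31% of all genes. These were Ebp, the sterol isomerase, at -0.23 ± 0.16 (limma adjusted p = 0.679) and Nsdhl, the sterol C4 decarboxylase, at -0.30 ± 0.26 (0.689), which read 8.30, 9.49 and 9.05 in wild type and 8.30, 9.09 and 8.57 in the mutant.

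The genes listed for SREBP control, and for factors that work beside it (Nfya, Nfyb, Nfyc and Sp1), differed by 0.25 or less in the mean. Of 15 measured, 0 passed in either direction and the median was 0.05. Srebf2 read 7.16, 9.29 and 8.74 in wild type and 7.07, 9.08 and 8.92 in the mutant, a difference of -0.04 ± 0.20 (adjusted p = 0.916), and its other probe set gave -0.003 ± 0.05. Srebf2 was lowest on both arrays of pair 1, as were Fdps, Sqle and Cyp51. The median over all probe sets was also lowest there (6.07 and 6.08, against 6.38 to 6.95 on the other arrays). Srebf1, which favours fatty acid genes, differed by 0.06 ± 0.05, Scap by 0.06 ± 0.04 and Insig2, the second Insig, by 0.04 ± 0.16 (adjusted p from 0.829 to 0.901). The 4 with the smallest p included Sp1, a factor that works beside SREBP (0.19 ± 0.11), and Ubxn8 (-0.17 ± 0.11). No role of Ubxn8 in SREBP control is claimed here. The others were Prkaa1, a catalytic subunit of the kinase AMPK (-0.16 ± 0.16), and Rnf139, a sterol-sensing ubiquitin ligase (-0.25 ± 0.42, of which -0.73 came from pair 1).

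For uptake, 12 genes were measured, 0 passed, and 6 were higher and 6 lower with a median of 0.006. Vldlr, the very-low-density lipoprotein receptor, read 9.56, 9.71 and 9.75 in wild type and 9.83, 10.18 and 9.99 in the mutant. In the deposited values all mutant arrays were above all wild-type arrays, as for 0.682% of all genes. The difference was 0.32 ± 0.12 (1.25-fold, limma adjusted p = 0.442). Whether the genotypes stay apart for Vldlr after normalization across the arrays was not tested. Another Vldlr probe set, named after its values were seen, differed by 0.44 ± 0.09 (limma adjusted p = 0.247). The rest of its 6, by falling level, gave 0.23 ± 0.24, 0.35 ± 0.10, 0.10 ± 0.08 and -0.003 ± 0.06, the last at a mean level of 5.00. Lrp8, a related receptor, differed the other way, at -0.33 ± 0.23 (adjusted p = 0.588), and Npc1, the lysosomal cholesterol exporter, by 0.21 ± 0.34. Stard4, a cytosolic sterol carrier, differed by -0.09 ± 0.05.

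Of 15 genes of cholesterol efflux, storage and lipoproteins, 0 passed. In the mean 11 were lower and 4 higher, where 48.6% of all genes were lower, and the median was -0.07. Apod, a small lipid-carrying apolipoprotein, read 11.24, 12.38 and 11.94 in wild type and 10.54, 12.04 and 11.47 in the mutant. It was lower in all 3 pairs, by a mean of -0.51 ± 0.18 (limma adjusted p = 0.282), and its second probe set differed by -0.63 ± 0.25 (0.281). Nceh1, a cholesterol ester hydrolase, differed by -0.34 ± 0.19 (adjusted p = 0.516) and Clu, clusterin, by -0.25 ± 0.20 (0.689). Apoe had the widest spread of any gene named here. It read 10.73, 12.42 and 12.33 in wild type and 8.07, 12.35 and 11.85 in the mutant, so that pair 1 differed by -2.65 and the others by -0.07 and -0.48 (adjusted p = 0.732).

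**Figure D3:**
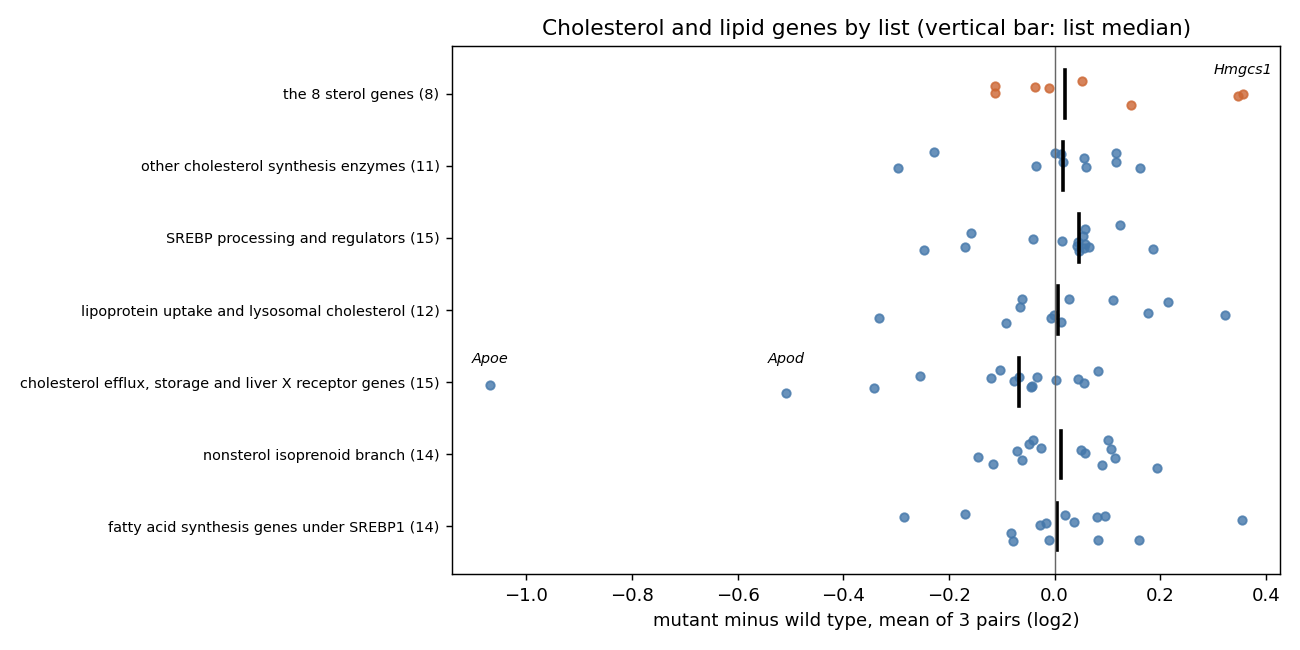
Mean paired difference (x axis, log2) of each gene in the 8 sterol genes (orange) and 6 lists of related genes (blue), with the number measured in brackets and a vertical bar at each list's median. All medians lie between -0.07 and 0.05, and Apoe is the point farthest from 0.

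Of 14 genes of the nonsterol isoprenoid branch 0 passed (median 0.01). Fnta, a farnesyltransferase subunit, gave the same direction in 3 pairs at 0.19 ± 0.03 (adjusted p = 0.629), and Coq7, of ubiquinone synthesis, gave -0.14 ± 0.05, Dhdds, of dolichol synthesis, -0.12 ± 0.13, and Pggt1b 0.11 ± 0.10. Of 14 fatty acid synthesis genes under SREBP1 0 passed (median 0.004). Scd1, the stearoyl-CoA desaturase, differed by -0.28 ± 0.10 (adjusted p = 0.475) and Elovl6, the elongase before it, by 0.36 ± 0.23 (0.546), in opposite directions in all 3 pairs. Gpam (0.10 ± 0.12) and Fads2 (-0.17 ± 0.34) were next. Over all 81 related genes, an unadjusted p under 0.05 was reached by 3 that were higher and 7 that were lower (4.04% and 3.31% of all genes), and 0 passed after adjustment in either fit.

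The median profile of the 8 genes over pairs 1 to 3 (0.04, -0.03 and 0.12) was close to that of many genes. Of 18031 genes outside the lists, 4110 lay within a root mean square distance of 0.1 of it over the 3 pairs. The 5 nearest were Mok, 4930412B13Rik, Zbtb3, Tpp2 and Ints9, at distances from 0.0064 to 0.011.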

How the data were processed

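The authors deposited 1 log2 value per probe set and array, and the submitters' processing notes name RMA without a version or settings. The values run from 2.33 to 14.6, from which the log2 scale was inferred, and were used as deposited. The table held 45101 probe sets, of which 64 controls were left out, with no filter on level. Of those tested, 34945 had 1 symbol in the platform annotation, 932 several and 9160 none. Symbols were checked through gene identifiers against RefSeq (GRCm38.p6), where 34741 probe sets matched and 0 symbols changed.

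Differences are mutant minus wild type, fitted with limma 3.58.1 in R 4.3.3 (lmFit and eBayes, two-sided) over all probe sets, with the replicate number as a block, Benjamini-Hochberg adjustment and a threshold of 0.05. Replicate numbers come from the labels. Same-numbered arrays deviated together from their genotype means (correlations of 0.879, 0.818 and 0.746), above the limit of 0.1 set for pairing, and equal values occurred only within them, so each pair may have been processed separately. The labels do not say that pools are independent beyond their numbers. The p-values of the paired fit measure the spread of the 3 within-pair differences of these 6 pools, moderated by limma over all probe sets. Spread that the arrays of a pair share is removed by the block. A gene was represented by its probe set with the highest mean level. The fit was tested on simulated data.

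The members and lists were chosen with earlier results of these data known. Of 91 related genes listed, 81 were matched. The rule named all members, Esrrb, the main SREBP genes, and from each list the genes that passed and the 4 with the smallest p. The added alternatives were chosen after seeing the data.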

Additional observations from a re-analysis of the deposited data

How the results depend on the processing

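No probe set or gene of the 8 and no related gene passed under any alternative run, namely no replicate block (0), quantile normalization, median centring, a filter on level (15 of the 21 probe sets left), trend and robust eBayes, probe sets without the endings _x_at or _s_at, averaging the probe sets of each gene, leaving out each pair (0 each time), and, added after seeing the data, quantile normalization without the block. An adjusted p threshold of 0.1 also gave 0. Over all 45037 probe sets, 3 passed without the block and 2 with quantile normalization without the block. Leaving out pairs 1, 2 and 3 gave 7, 0 and 0. In these settings few or no probe sets passed at all, so their counts of 0 say nothing particular to the listed genes. In the other alternative fits 32 to 58 probe sets or genes passed. The median over the 8 genes was 0.02 and moved to 0.10 without _x_at and _s_at probe sets and to 0.12 with averaged probe sets; without 1 pair it ran from 0.02 to 0.06. Lss turned positive with median centring (0.0029), without _x_at and _s_at probe sets (0.30) and with the mean of its probe sets (0.12), and ran from -0.16 to 0.072 without 1 pair. Without pair 1 Sqle was 0.0036, and its range over pairs left out was -0.11 to 0.0036; Fdps ran from -0.20 to 0.025 and Insig1 from -0.018 to 0.24, both changing sign without pair 3. Fdft1 was 0.11 with averaged probe sets and 0.14 where its second probe set represents it (quantile normalization, and without _x_at and _s_at probe sets), and Hmgcs1 ran from 0.24 to 0.43 over its alternatives. The numbers of sterol genes holding each motif were equal in the bases before the start alone. With 1 pair left out, 1 residual degree of freedom remained per probe set. Signal over background is not given.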
